A study of Mus musculus with 70 samples.

Results

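Plasmacytoid dendritic cells (pDC) of the mouse spleen were compared with type 1 conventional dendritic cells (cDC1) in C57BL/6.g7 mice, called B6g7, which are C57BL/6 mice with the MHC class II haplotype of the NOD strain. The comparison used 6 of the 70 libraries of the series, chosen by their labels alone: 3 pDC B6g7 libraries sorted on 10.16.2015 and 3 cDC1 B6g7 libraries sorted on 10.26.2015, each made from 2000 sorted cells. All mice were 8 to 10 weeks old and had received phosphate-buffered saline (PBS) into the peritoneum 5 h before the spleen was taken. Levels are CPM, the usual count scaled to the library total, after TMM scaling, a log2 change is pDC minus cDC1, and a gene was called at an adjusted p under 0.05 in edgeR's quasi-likelihood test. Every adjusted p below comes from that test. Other libraries were set beside these 6. They were 3 pDC NOD and 3 cDC1 NOD libraries with the same treatment, cell number and sort dates, and 3 further cDC1 B6g7 libraries of 5000 cells sorted on 01.05.2016. There were also 2 pairs of 1 pDC and 1 cDC1 library of 10000 cells each, from B6 Rag1-/- and NOD Rag1-/- mice with the same injection, all sorted on 02.02.2015. Rag1-/- mice lack mature B and T cells, their B6 controls are not labelled g7, and all their libraries belong to another sequencing run.

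Sort date went with cell type in the 6 libraries, so cell type and date cannot be told apart there. The labels do not tie libraries to animals, so p-values measure the spread between these libraries, which may be technical. Each library is a bulk sample: fewer cells of a type and less RNA per cell cannot be told apart. The sources used here give no sort antibodies, and the deposited table heads the cDC1 columns with CD8a, so surface genes such as Siglech, Bst2, Xcr1, Cd8a and Itgax may have been part of the gate.

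Plasmacytoid dendritic cells are round cells with the secretory build of a plasma cell, known for the rapid release of type I interferon when the endosomal receptors TLR7 and TLR9 meet nucleic acid. Their identity depends on the E protein TCF4, encoded by Tcf4, which binds E-box DNA motifs. Conventional type 1 dendritic cells depend on IRF8 and BATF3, with ID2 holding E proteins in check. They take up dead cells through CLEC9A, meet cytotoxic T cells through XCR1, and cross-present antigen to them.

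Library totals were 13.3 to 14.6 M expected counts in pDC and 15.96 to 16.8 M in cDC1. RNA integrity numbers were 8.4 to 8.9 in pDC and 8.1 to 9 in cDC1. Between 10.4% and 10.8% of counts in pDC, and 21.9% to 22.2% in cDC1, fell on the 10 top genes of a library, and in cDC1 Tmsb4x, Cd74 and Cst3 led. Cst3, which encodes the protease inhibitor cystatin C and is named here for its abundance, had 2147 CPM in pDC against 42712 CPM in cDC1 on average. TMM factors were 1.11 to 1.14 in pDC and 0.882 to 0.889 in cDC1. Without TMM the median log2 change of all genes was 0.39 in place of 0.04, and 69.5% in place of 50.3% of called genes were higher in pDC (58.4% in place of 49.6% of those past 4-fold). Rag1, which the labels say is disrupted in the Rag1-/- mice, had 5, 6 and 3 counts in the pDC B6g7 libraries and 0 in the cDC1 B6g7 libraries. It had 35 and 8 counts in the pDC and 10 and 18 in the cDC1 libraries labelled Rag1-/- (B6 and NOD), so its count did not check that label.

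The 4 genes given to mark the cells followed the labels. Siglech, a sialic acid-binding lectin of the pDC surface, had 6044, 6537 and 6150.1 CPM in pDC, against 30.5, 38.1 and 26.9 CPM in cDC1. Its log2 change 7.62 ± 0.14 (SE), adjusted p = 7.55e-12, put it 196-fold higher, and the groups did not overlap. Tcf4 had 819, 834 and 849 CPM in pDC, against 47.3, 51 and 44.7 CPM in cDC1 (log2 change 4.13 ± 0.09 (SE), adjusted p = 3.62e-14). Every pDC library stood far above every cDC1 library for both genes. Xcr1, the chemokine receptor of cDC1, had 1.78, 1.44 and 2.95 CPM in pDC, against 777, 778 and 786 CPM in cDC1 (log2 change -8.57 ± 0.18 (SE), adjusted p = 5.59e-12). Clec9a, which binds the actin of dead cells, had 136, 124 and 130.5 CPM in pDC, against 415, 395 and 425 CPM in cDC1 (log2 change -1.66 ± 0.08 (SE), adjusted p = 2.31e-10). Clec9a was thus lower in pDC without overlap, but far from absent there.

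**Figure D1:**
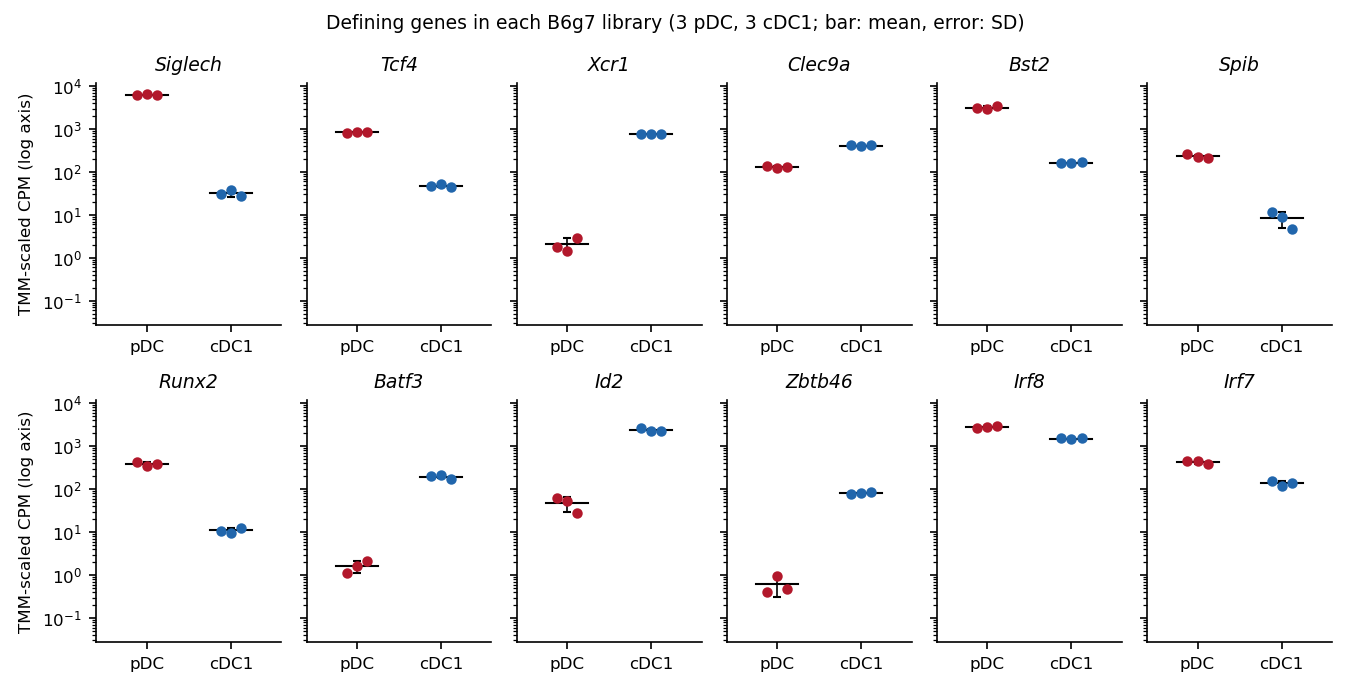
TMM-scaled CPM (log axis) of 12 defining genes, 1 panel per gene, with pDC B6g7 left of cDC1 B6g7; points are libraries, horizontal bars means and whiskers the SD (n = 3 each). Siglech and Tcf4 sit higher in the 3 pDC libraries and Xcr1 in the 3 cDC1 libraries, while Clec9a differs by a smaller step (log2 change -1.66).

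The level of Clec9a in pDC stood out when the 47 Rag-sufficient libraries were put on 1 scale. It was 154 ± 7.30 CPM in pDC B6g7 and 491 ± 17.4 CPM in cDC1 B6g7 (SD, n = 3 each). It was 2.00 ± 1.54 CPM in type 2 conventional dendritic cells (cDC2) of B6g7 sorted with the cDC1, and 1.79 ± 0.614 CPM in B6g7 monocytes (SD, n = 3 each). In monocyte-derived dendritic cells (moDC) of B6g7 it was 25.9 ± 9.14 CPM on that date. The order from high to low was therefore cDC1, pDC, moDC, and then cDC2 with monocytes, whose spreads overlapped. Xcr1, by contrast, was 2.43 ± 0.942 CPM in pDC B6g7 on this scale; it was 0.940 ± 0.441 CPM in B6g7 monocytes.

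Lists of 18 pDC and 20 cDC1 identity genes were set beside the 4 given markers. The lists hold these 4 genes and were chosen with earlier results of these data known. Their counts are therefore a description and no independent check of identity. For pDC identity genes 18 of the 18 tested members were higher in pDC and 0 were lower, with 18 and 0 past 4-fold, and the median log2 change was 6.23 against 0.04 for all genes. Klk1, a kallikrein protease gene, led with 2228, 3004 and 3230.3 CPM in pDC, against 0, 1.76 and 0 CPM in cDC1. Cox6a2, a cytochrome oxidase subunit otherwise known from muscle, had 998, 886 and 1039.7 CPM in pDC, against 1.61, 1.48 and 0.549 CPM in cDC1, and Ly6d, a marker of lymphoid progenitors, had 4077, 4321 and 5169 CPM in pDC, against 1.61, 13.5 and 6.11 CPM in cDC1. All 3 were low in cDC1 and high in every pDC library. For cDC1 identity genes 1 of the 20 tested members was higher in pDC and 19 were lower, with 0 and 18 past 4-fold, and the median was -6.84. The exception was Irf8, needed by both lineages, with 2597, 2739 and 2901 CPM in pDC, against 1542, 1447 and 1544 CPM in cDC1 (log2 change 0.86). Irf8 was higher in pDC of these libraries and in NOD (0.70), while its log2 difference was -0.39 in the B6 pair and -0.15 in the NOD pair of the same-day Rag1-/- libraries.

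Promoter sequences are shown for genes on both sides of the difference, since TCF4 binds E-boxes. The genes were chosen after their values were seen. Each is 300 bases of RefSeq sequence (build GRCm38.p6), 250 before the annotated start and 50 after, on the gene's strand, and capitals mark the E-box CACCTG or its reverse complement CAGGTG. Siglech lies at chr7:55767934-55768233 on the plus strand, Ccr9 at chr9:123766961-123767260 on the plus strand, Xcr1 at chr9:123861980-123862279 on the minus strand and Clec9a at chr6:129408612-129408911 on the plus strand.
Siglech: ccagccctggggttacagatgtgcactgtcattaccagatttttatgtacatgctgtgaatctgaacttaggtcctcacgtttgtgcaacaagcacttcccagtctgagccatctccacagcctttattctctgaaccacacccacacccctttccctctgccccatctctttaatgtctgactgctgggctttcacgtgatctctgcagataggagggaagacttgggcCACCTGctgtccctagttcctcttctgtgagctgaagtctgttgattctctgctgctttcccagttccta
Ccr9: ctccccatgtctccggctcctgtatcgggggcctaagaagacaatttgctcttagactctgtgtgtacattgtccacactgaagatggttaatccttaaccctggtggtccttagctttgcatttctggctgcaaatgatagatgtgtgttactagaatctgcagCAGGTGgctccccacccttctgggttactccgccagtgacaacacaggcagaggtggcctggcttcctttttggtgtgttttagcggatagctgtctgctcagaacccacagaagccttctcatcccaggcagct
Xcr1: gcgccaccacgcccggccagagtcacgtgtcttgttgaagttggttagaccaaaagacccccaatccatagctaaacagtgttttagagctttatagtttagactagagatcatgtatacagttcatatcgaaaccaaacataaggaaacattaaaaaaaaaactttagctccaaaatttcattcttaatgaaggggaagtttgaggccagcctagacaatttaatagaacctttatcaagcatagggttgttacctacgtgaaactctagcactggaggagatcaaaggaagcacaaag
Clec9a: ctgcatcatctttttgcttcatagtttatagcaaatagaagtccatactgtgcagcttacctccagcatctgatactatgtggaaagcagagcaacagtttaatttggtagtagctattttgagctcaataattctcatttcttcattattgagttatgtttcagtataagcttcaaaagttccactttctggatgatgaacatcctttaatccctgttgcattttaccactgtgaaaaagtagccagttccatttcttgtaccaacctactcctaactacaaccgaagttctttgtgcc
This form of the E-box began 20 bases before the start of Siglech and 85 before that of Ccr9. Neither Xcr1 nor Clec9a held CACCTG or CAGGTG in this window. Other forms of the E-box were not searched, so their absence cannot be read from the lack of capitals. By list, 6 of 12 pDC identity genes with a promoter entry held the motif (50.0%) and 1 of 16 cDC1 identity genes did (6.25%), that one being Zbtb46. The share was 16.4% of the 9032 tested genes with an entry, 22.1% of 737 genes at least 4-fold higher in pDC and 18.2% of 765 genes at least 4-fold lower. Among other motifs searched on both strands, TGANTCA, the site of AP-1 factors, was in 5.43% of the higher and 8.37% of the lower genes, against 4.68% of tested genes. For the Ets-IRF composite element the shares were 2.85% and 3.01% against 2.56%, and for TTCNNGAA, the core of the heat shock element, 6.92% and 6.80% against 6.99%. These are counts of letters in a window, with no test.

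Over all genes, 6604 of 11186 tested were called (59%), 3323 higher in pDC (29.7%) and 3281 lower (29.3%). A change past 4-fold in size was found for 1930 (17.3%), 958 higher (8.56%) and 972 lower (8.69%). Small changes were also common between sort dates within 1 cell type. The cDC1 B6g7 libraries of 01.05.2016 (5000 cells) differed from those of 10.26.2015 (2000 cells) at 7743 of 11106 tested genes (69.7%). Of those, 588 (5.29% of tested genes) passed 4-fold. The median size of the log2 change was 0.65 between cell types and 0.82 between dates, whereas the 90th percentile was 3.24 against 1.81 and the 99th 8.81 against 2.58. Of the 1930 large cell-type differences, 1556 were tested between dates and 124 of these were also past 4-fold there. The cDC1 dates differed by transcript length, with median log2 changes of −0.44, −0.42, 0.04 and 0.66 over 4 equal bins of genes of rising length, while those between pDC and cDC1 were −0.04, 0.03, 0.10 and 0.09. In the same-day Rag1-/- pairs the medians of the same bins were 0.34, 0.29, −0.25 and −0.69 in the B6 pair and 0.17, 0.19, 0.0040 and −0.48 in the NOD pair. Of 125 genes named here with counts in pDC and on both cDC1 dates, 79 had a fold change that moved by over 1.5 times against the cDC1 of 01.05.2016, smaller in size for 49 and larger for 30, and 6 of 101 were no longer past 4-fold (Cd8a, H2-Eb1, Ifitm3, Lyz2, S100a4, Tmsb4x). For these reasons the groups below are described mainly by differences past 4-fold, and the background shares just given apply to their counts.

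**Figure D2:**
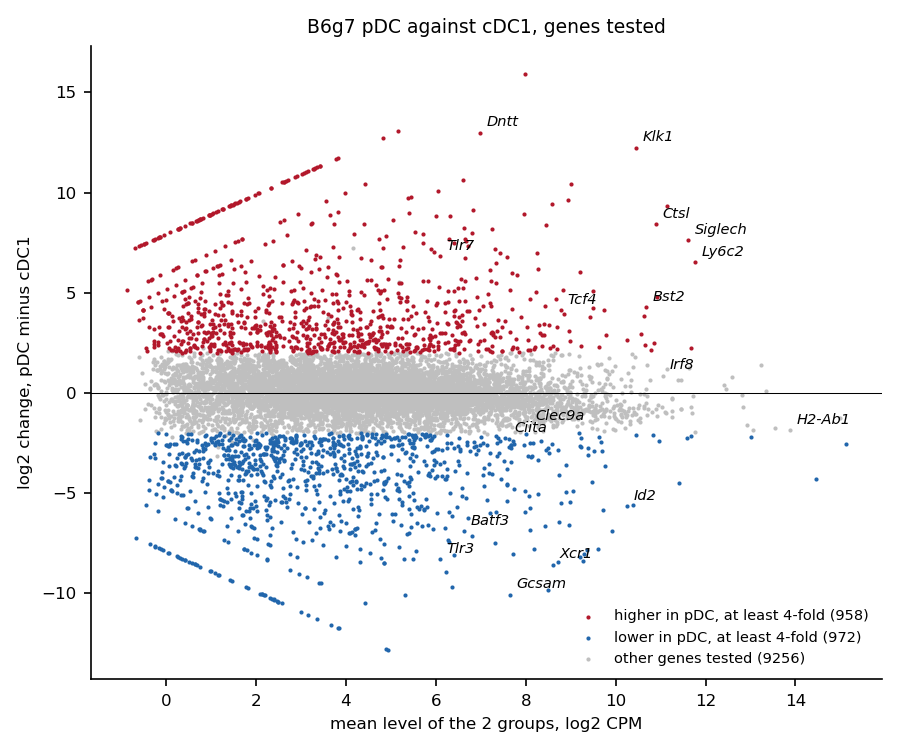
Log2 of the mean CPM of each tested gene (x axis) against its log2 change (y axis) (pDC minus cDC1), with genes past 4-fold coloured. The 958 higher and 972 lower genes lie on both sides of a dense band near 0.04, and the straight diagonals are genes with 0 counts in one cell type.

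**Figure D3:**
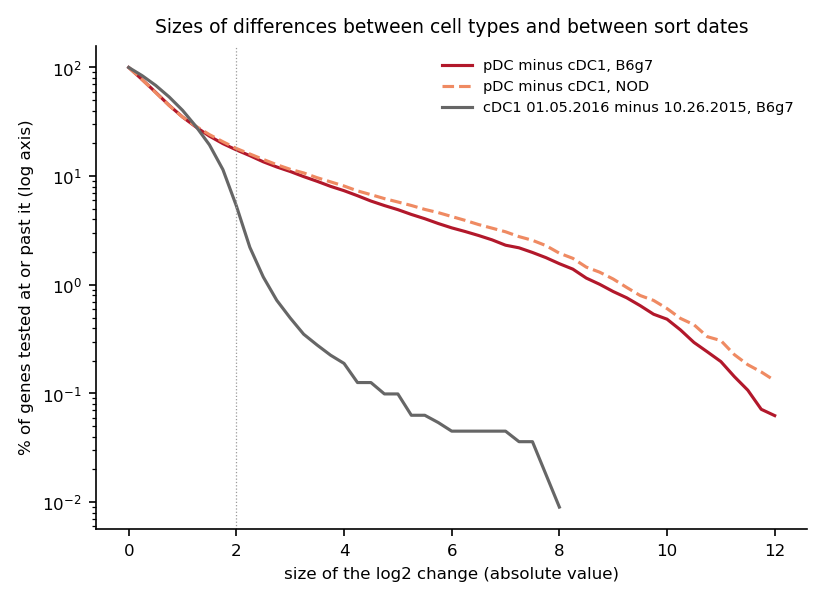
Share of tested genes (percent, log axis) at or past each size of log2 change, for pDC minus cDC1 in B6g7 and NOD and for the 2 sort dates of cDC1 B6g7. At a log2 size of 2 the shares are 17.4%, 17.97% and 5.32%, and at 4 they are 7.35%, 8.11% and 0.189%.

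The highest changes belonged to genes nearly absent from cDC1. Klk1b27, a kallikrein, averaged 508 ± 100 CPM in pDC and 0 ± 0 CPM in cDC1 (SD, n = 3 each), at least 7389-fold higher against a floor of 3 counts over the cDC1 group. Klk1 and Klk1b27 are close paralogs whose reads the authors' counting could have split. Dntt, the template-independent polymerase of early lymphocytes, had 260.1, 233 and 270.0 CPM in pDC, against 0.0670, 0 and 0 CPM in cDC1 (log2 change 12.99). Cd28, known as a costimulatory receptor of T cells, had 63.1, 54.6 and 53 CPM in pDC, against 0, 0 and 0 CPM in cDC1 and was at least 828-fold higher. Grm8, a glutamate receptor, had 60.2, 69.97 and 84 CPM in pDC, against 0, 0 and 0 CPM in cDC1, at least 1039-fold higher. In each, every pDC library was well above 0 and every cDC1 library at or beside it. Pltp, the phospholipid transfer protein, had 905, 1082 and 1080.0 CPM in pDC, against 0.402, 0.776 and 1.03 CPM in cDC1 (log2 change 10.43). Mctp2, Ccdc162, Tmem163 and Angptl7 completed the 10, with log2 changes of 10.62, 10.06, 9.78 and 9.71.

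Genes near absent from pDC included known cDC1 genes and others. Gcsam, a germinal centre signalling adaptor, had 0.396, 0.180 and 0.537 CPM in pDC, against 416, 403 and 382 CPM in cDC1 (log2 change -10.07). Tlr11, the endosomal receptor for profilin, had 0.0660, 0.180 and 0.335 CPM in pDC, against 174, 164 and 158 CPM in cDC1 (log2 change -9.68). Gpr141b, an orphan receptor with a close paralog, had 0.330, 0.601 and 1.41 CPM in pDC, against 695, 709 and 751 CPM in cDC1. All 3 were at or under 1 CPM on average in pDC. Ocstamp, known from cell fusion in osteoclasts, averaged 0 ± 0 CPM in pDC and 61.1 ± 8.55 CPM in cDC1 (SD, n = 3 each) and was at least 950.3-fold lower, and the lectin Clec4b2 was at least 920.5-fold lower. Arpin, an inhibitor of the Arp2/3 complex, and Hepacam2 and Dkk3 had log2 changes of -10.10, -8.93 and -8.50. Hspa1a, a heat shock gene nearly identical to Hspa1b, had 2.84, 2.34 and 2.08 CPM in pDC, against 521, 1270.5 and 729.6 CPM in cDC1. Against the cDC1 libraries of 01.05.2016 its log2 change was -2.91 in place of -8.43, and between the 2 cDC1 dates it was −5.65.

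Of the lineage transcription factors, 20 of the 39 tested members were higher in pDC and 15 were lower, with 12 and 6 past 4-fold, out of 41 in the table. Runx2, a factor that lets pDC leave the marrow, had 430.4, 354 and 392 CPM in pDC, against 10.4, 9.74 and 12.8 CPM in cDC1 (log2 change 5.16). Spib, an Ets factor of pDC and B cells, had 256, 228 and 211 CPM in pDC, against 11.7, 8.75 and 4.80 CPM in cDC1 (log2 change 4.78). Both were high in all pDC libraries. Ets1, Notch1 and Ikzf3, familiar from lymphocytes, were also higher, with log2 changes of 5.48, 5.63 and 5.21. Ets1 averaged 72.8 CPM in pDC against 1.62 CPM in cDC1, Notch1 43.4 CPM in pDC against 0.872 CPM in cDC1 and Ikzf3 9.65 CPM in pDC against 0.253 CPM in cDC1. Against the cDC1 of 01.05.2016 the log2 changes were 4.17, 2.66 and 4.24, and the same-day differences of Notch1 were 2.63 in the B6 pair and 2.09 in the NOD pair. On the cDC1 side, Id2 had 63.4, 52.9 and 28 CPM in pDC, against 2602, 2291 and 2319.7 CPM in cDC1 (log2 change -5.64). Batf3 had 1.12, 1.62 and 2.15 CPM in pDC, against 198, 214 and 177 CPM in cDC1 (log2 change -6.91), and Zbtb46, a factor of conventional dendritic cells, had 0.396, 0.962 and 0.470 CPM in pDC, against 77.3, 80.04 and 86.6 CPM in cDC1 (-7.02). Zfp366 was lower too, at 0.199 CPM in pDC against 17.8 CPM in cDC1 (log2 change -6.46). Batf3 and Id2 also differed between the cDC1 dates: on the 47-library scale Batf3 was 80.8 ± 3.50 CPM on 01.05.2016 and 234 ± 22.1 CPM on 10.26.2015 (SD, n = 3 each), both far above the 1.93 ± 0.609 CPM of pDC.

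The nucleic acid receptors split by gene. In the list of Toll-like receptors and their trafficking factors, 13 of the 28 tested members were higher in pDC and 9 were lower, with 2 and 5 past 4-fold, out of 29 in the table. Tlr7, a receptor for single-stranded RNA, had 134, 138 and 134 CPM in pDC, against 0.670, 1.91 and 0.961 CPM in cDC1 (log2 change 6.84 ± 0.22 (SE), adjusted p = 1.49e-11). Tlr3, a receptor for double-stranded RNA, had 0.528, 0 and 0.805 CPM in pDC, against 148, 124 and 136 CPM in cDC1 (log2 change -8.28 ± 0.41 (SE), adjusted p = 9.42e-07). The 2 genes were near exclusive of each other, with no overlap. Tlr9, a receptor for unmethylated DNA, had 10.9, 6.91 and 8.05 CPM in pDC, against 4.89, 2.05 and 2.06 CPM in cDC1 (log2 change 1.52), a low level in both types, and its same-day differences were 1.80 in the B6 pair and -0.04 in the NOD pair. Slc15a3, an endosomal peptide and histidine transporter, was higher at 21.2 CPM in pDC against 2.00 CPM in cDC1, and Pld4, an endosomal nuclease, at 2092 CPM in pDC against 548 CPM in cDC1 (log2 changes 3.40 and 1.93). Tlr13 and Tlr1 were lower, with log2 changes of -6.61 and -3.49. Tlr7 was not particular to pDC in level: on the 47-library scale it was 159.7 ± 2.47 CPM in pDC B6g7 and 222 ± 29 CPM in B6g7 monocytes (SD, n = 3 each).

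Among downstream signalling genes Irf7 was higher in pDC, and Irf5 and Relb were lower. In the Toll-like receptor signalling list, 6 of the 27 tested members were higher in pDC and 12 were lower, with 1 and 0 past 4-fold, and the median log2 change was -0.13. Without scaling 9 were higher and 6 lower, with a median of 0.22. With the cDC1 libraries of 01.05.2016 in place of the others the counts were 5 higher and 21 lower of 28, with a median of -1.10. In that fit 76.5% of all tested genes were called, 36.8% higher and 39.7% lower. The sign of the list's median thus turned without scaling, and its counts moved with the cDC1 libraries. Irf7, the factor that drives interferon transcription, had 459, 448 and 386 CPM in pDC, against 157, 119 and 143 CPM in cDC1 (log2 change 1.62), and Ikbke, a kinase upstream of it, had 5.48 CPM in pDC against 0.116 CPM in cDC1 (5.48). Irf5 and Relb averaged 171 CPM in pDC against 387 CPM in cDC1 and 28.2 CPM in pDC against 79.7 CPM in cDC1, with log2 changes of -1.18 and -1.50. In cytosolic sensing, 4 of the 18 tested members were higher in pDC and 11 were lower, with 0 and 6 past 4-fold. Cgas, the DNA sensor, had 1.19, 1.44 and 1.81 CPM in pDC, against 21, 23.6 and 22.9 CPM in cDC1 (log2 change -3.92), whereas Sting1, its partner on the endoplasmic reticulum, had 257, 299 and 269.7 CPM in pDC, against 75.8, 69.95 and 74.9 CPM in cDC1 (1.90). Sensor and adaptor thus moved in opposite directions, without overlap. Nlrp1b, Nlrc4 and Nlrp3, inflammasome sensors, were lower, with log2 changes of -4.25, -4.11 and -2.59.

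Interferon ligands were at the limit of detection. Of 18 type I interferon genes, 16 had no count in the 6 libraries, and the rest had 7 counts in the 3 pDC libraries and 0 in the 3 cDC1 libraries. The receptors differed: of 11 tested members of the ligand and receptor list (32 in the table, 17 without a count), 4 were higher and 4 lower in pDC, with 1 and 2 past 4-fold (7 higher and 3 lower without scaling). Ifnar2, a subunit of the type I interferon receptor, had 618, 671 and 648 CPM in pDC, against 123, 127 and 136 CPM in cDC1 (log2 change 2.33). Ifngr1, a subunit of the interferon gamma receptor, had 43.5, 50.7 and 46.9 CPM in pDC, against 795, 791 and 845 CPM in cDC1 (-4.11). Ifngr2 was also lower (-1.10). Ifnar1 was higher (1.84), but its call was lost with all 6 cDC1 libraries (log2 change 0.96, adjusted p = 0.082 in that edgeR test). Its log2 change was 0.41 against the cDC1 of 01.05.2016, and its same-day differences were 0.34 in the B6 pair and 0.33 in the NOD pair. Ifnlr1, the lambda interferon receptor, was at least 61.9-fold lower. Type I interferon-stimulated genes showed no common direction: 19 of the 50 tested members were higher in pDC and 16 were lower, with 6 and 6 past 4-fold, with a median of 0.03, and of 0.38 without scaling. Ly6a, Bst2 and Ifi27l2a led the higher ones, with log2 changes of 4.78, 4.26 and 3.37. Bst2, which tethers virus particles to the cell and marks pDC, had 3007, 2912 and 3466 CPM in pDC, against 163, 159.6 and 166 CPM in cDC1. Ly6a belongs to a family of close paralogs. Among the lower ones were Parp12 (-4.54) and Phf11d (-3.48), and Ifitm3 (-2.58). Ifitm3 was -1.06 against the cDC1 of 01.05.2016, and its same-day differences were 2.23 in the B6 pair and -0.60 in the NOD pair.

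The class II chains H2-Ab1 and H2-Eb1 and their regulator Ciita were lower in pDC, and the endosomal proteases Ctsl, Ctsb and Ctsd were higher. In the class II list, 7 of the 21 tested members were higher in pDC and 13 were lower, with 3 and 3 past 4-fold, with a median log2 change of -0.76, and of -0.28 against the cDC1 of 01.05.2016. H2-Ab1, the class II beta chain, had 6059.6, 6554 and 6867 CPM in pDC, against 23941, 22915 and 24264 CPM in cDC1 (log2 change -1.87 ± 0.06 (SE), adjusted p = 1.95e-12). Ciita, the class II master regulator, had 49.5, 61.3 and 90.1 CPM in pDC, against 322, 323 and 333 CPM in cDC1 (log2 change -2.28), and H2-Ob, a brake on peptide loading, had 5.25 CPM in pDC against 317 CPM in cDC1 (-5.92). Every pDC library lay under every cDC1 library for these. Ctsl had 3937, 3631 and 3813 CPM in pDC, against 11.5, 10.1 and 11.2 CPM in cDC1 (log2 change 8.44), Ctsb averaged 2699 CPM in pDC against 507 CPM in cDC1 (2.41) and Ctsd 296 CPM in pDC against 34.7 CPM in cDC1 (3.09). H2-Eb1 had a log2 change of -2.22. Against the cDC1 of 01.05.2016 both chains were nearer to pDC, with log2 changes of -0.95 for H2-Ab1 and -1.11 for H2-Eb1. Reads of class II genes may be shared between paralogs. In the class I and cross-presentation list, 9 of the 31 tested members were higher in pDC and 16 were lower, with 2 and 2 past 4-fold, and the median was -0.55. Its 16 lower against 9 higher members became 13 higher and 13 lower of 31 against the cDC1 of 01.05.2016, and 13 higher and 14 lower without scaling. Wdfy4 and Rab43, both needed for cross-presentation by cDC1, were lower, with 28.4, 19.8 and 28.4 CPM in pDC, against 373, 318 and 378 CPM in cDC1 for Wdfy4 (log2 change -3.80) and a log2 change of -3.56 for Rab43. Cybb, a subunit of the phagosome oxidase, was higher at 874 CPM in pDC against 57.3 CPM in cDC1 (3.93).

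**Figure D4:**
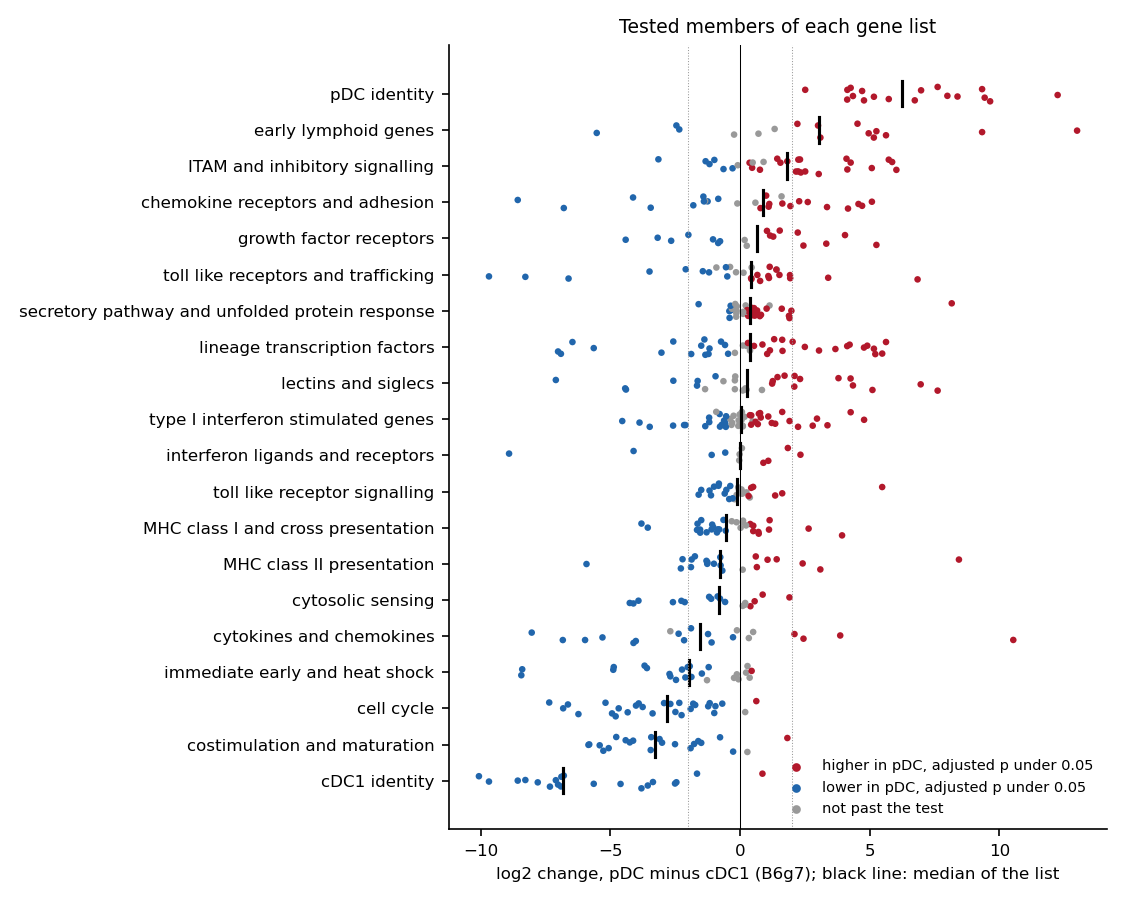
Log2 change (pDC minus cDC1) of each tested member of the gene lists, 1 row per list, with the list's median marked. Identity lists lie at the ends, with medians of 6.23 for pDC and −6.84 for cDC1, and the costimulation (−3.27) and cell cycle (−2.81) lists lie left of 0.

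Costimulatory and maturation genes were mostly lower in pDC: 1 of the 22 tested members was higher in pDC and 20 were lower, with 0 and 14 past 4-fold. Cd83, a maturation marker, had 40.3, 24.2 and 21.3 CPM in pDC, against 1369, 1628 and 1938 CPM in cDC1 (log2 change -5.85), and Il15, which supports NK and CD8 T cells, had 1.32, 1.08 and 1.14 CPM in pDC, against 50.5, 35.6 and 51.5 CPM in cDC1 (-5.27). Havcr2, the inhibitory receptor TIM-3, had 8.82 CPM in pDC against 378 CPM in cDC1 (-5.41), and the chemokine Ccl22 1.47 CPM in pDC against 83.6 CPM in cDC1 (-5.82). All of these were low in every pDC library. The one higher member was Cd200, at 81 CPM in pDC against 22.9 CPM in cDC1 (1.82). Of the cytokines and chemokines, 4 of the 20 tested members were higher in pDC and 12 were lower, with 4 and 8 past 4-fold, out of 26 in the table. Il1b had 8.39, 2.34 and 3.62 CPM in pDC, against 977, 1258 and 1503 CPM in cDC1 (log2 change -8.03), and Il12b, the p40 chain of IL-12, had 2.58, 4.63 and 0.805 CPM in pDC, against 128, 91.7 and 103 CPM in cDC1 (-5.31). Il12a, the p35 chain of IL-12, was on the other side, with 9.77, 14.8 and 12.3 CPM in pDC, against 0, 0 and 0 CPM in cDC1, at least 179-fold higher. The 2 chains of the cytokine thus differed in opposite directions. Against the cDC1 of 01.05.2016 the log2 change of Il1b was -5.23. Ccl4, an inflammatory chemokine, had 2473, 2627 and 3775 CPM in pDC, against 125, 283 and 203 CPM in cDC1 (3.86). Its log2 change was 7.11 against the cDC1 of 01.05.2016, so its level differed between the 2 sets of cDC1 libraries. Those sets differ in cell number as well as date. Cxcl9 and Cxcl16 were lower in pDC (-6.83 and -5.98).

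Homing genes differed in both directions. In the list of chemokine receptors and adhesion molecules, 13 of the 26 tested members were higher in pDC and 9 were lower, with 7 and 4 past 4-fold. Against the cDC1 of 01.05.2016 it was 12 higher and 12 lower of 27. In NOD it was 12 higher and 14 lower of 30, with 6 and 9 past 4-fold. Over all 11411 genes tested in NOD it was 3136 higher and 3332 lower, with 842 and 1181 past 4-fold. These background counts apply to the NOD counts of the lists below as well. Ccr9, a receptor for the gut chemokine CCL25, had 648, 833 and 869 CPM in pDC, against 30.3, 28.7 and 31.2 CPM in cDC1 (log2 change 4.70). Ccr7, the receptor for lymph node chemokines, had 37, 32.5 and 32.9 CPM in pDC, against 368, 356 and 392 CPM in cDC1 (-3.45), and the integrin Itgae had 0.332 CPM in pDC against 36.8 CPM in cDC1 (-6.80). Both groups of libraries stayed apart for these. Among lectins and Siglecs 13 of the 29 tested members were higher in pDC and 7 were lower, with 9 and 4 past 4-fold. In NOD the counts of this list were 12 higher and 14 lower of 31, with 7 and 9 past 4-fold, a lean that all genes tested in NOD shared. Clec10a, a galactose-binding lectin also known from cDC2, had 314, 334 and 374 CPM in pDC, against 3.15, 2.61 and 2.40 CPM in cDC1 (log2 change 6.96), and Ly75, or DEC-205, had 0.396, 0 and 0.402 CPM in pDC, against 38.1, 39.9 and 31.8 CPM in cDC1 (-7.10). Lgals1 was higher (5.10) and Lgals3 lower (-4.43), with 6.84 and -2.88 against the cDC1 of 01.05.2016 and same-day differences for Lgals3 of -2.35 in the B6 pair and 0.10 in the NOD pair. Among genes of ITAM-coupled and inhibitory receptor signalling, 20 of the 29 tested members were higher in pDC and 6 were lower, with 14 and 1 past 4-fold. Lair1, an inhibitory collagen receptor, had 1118, 1208 and 1177 CPM in pDC, against 14.6, 22 and 17.2 CPM in cDC1 (log2 change 6.03). Blnk, an adaptor of B cell receptor signalling, had 449.6, 445 and 429.8 CPM in pDC, against 5.90, 10.6 and 6.31 CPM in cDC1 (5.86). Both were high in all pDC libraries, and Pacsin1 and Cd72 were higher too (5.73 and 5.08).

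In B6g7, early lymphoid genes were mostly higher in pDC and past 4-fold, and secretory genes mostly higher by smaller steps. In the secretory pathway and unfolded protein response list, 22 of the 38 tested members were higher in pDC and 5 were lower, with 1 and 0 past 4-fold; against the cDC1 of 01.05.2016 it was 25 higher and 9 lower of 38. The median of the secretory list was -0.03 in the B6 and 0.31 in the NOD same-day pair, with 18 members positive and 9 negative in both pairs. Mzb1, a chaperone of immunoglobulin assembly, had 312, 211 and 389 CPM in pDC, against 0.335, 1.55 and 1.30 CPM in cDC1 (log2 change 8.16), and Xbp1, the factor that expands the secretory apparatus, had 718, 712 and 654 CPM in pDC, against 179, 183 and 203 CPM in cDC1 (1.88). Of the early lymphoid genes, 10 of the 16 tested members were higher in pDC and 3 were lower, with 10 and 3 past 4-fold, out of 24 in the table. In NOD, 10 of 19 tested early lymphoid genes were higher and 8 lower, with 9 and 8 past 4-fold. Il7r, the receptor of lymphoid progenitors, had 194, 202 and 170.3 CPM in pDC, against 7.57, 4.24 and 2.95 CPM in cDC1 (log2 change 5.25). Hes1, a Notch target, was lower at 1.01 CPM in pDC against 46.1 CPM in cDC1 (-5.53), as was Cd8a, at 251 CPM in pDC against 1376 CPM in cDC1 (-2.46). They were -4.35 and -1.32 against the cDC1 of 01.05.2016, and the same-day differences of Hes1 were -1.24 in the B6 pair and -1.48 in the NOD pair. Among growth factor receptors 9 of the 18 tested members were higher in pDC and 7 were lower, with 5 and 3 past 4-fold, whereas 7 higher and 10 lower of 19 were found against the cDC1 of 01.05.2016. Flt3, the receptor both lineages need, had 281, 326 and 310.3 CPM in pDC, against 521, 536 and 511 CPM in cDC1 (log2 change -0.77). Csf2rb2 was higher and Csf2ra and Kit lower, with log2 changes of 3.32, -2.66 and -3.18; they were 2.19, -2.97 and -5.71 against the cDC1 of 01.05.2016. These encode subunits of cytokine receptors and the stem cell factor receptor.

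Cell cycle genes were lower in pDC: 1 of the 28 tested members was higher in pDC and 26 were lower, with 0 and 18 past 4-fold, with a median log2 change of -2.81. Ccnb2, a mitotic cyclin, had 1.06, 0 and 0.268 CPM in pDC, against 58.1, 42.2 and 48.3 CPM in cDC1 (log2 change -6.82), and Kif11, a spindle motor, 0.0224 CPM in pDC against 4.88 CPM in cDC1 (-7.36). The list's median was -4.07 in the B6 and 0.69 in the NOD same-day pair, and 5 of 28 members were negative in both, so the NOD pair did not show it. Immediate early and heat shock genes were lower as well, and 1 of the 24 tested members was higher in pDC and 16 were lower, with 0 and 12 past 4-fold. Atf3, a stress-induced factor, had 19.8, 13.8 and 15.8 CPM in pDC, against 389, 554 and 521 CPM in cDC1 (-4.89), and Nr4a2 had 0.568 CPM in pDC against 16.6 CPM in cDC1 (-4.87). Atf3 was -2.03 against the cDC1 of 01.05.2016. In the cDC1 dates, 13 of 24 of them were called lower in the cDC1 libraries of 01.05.2016 than in those of 10.26.2015, against 34.3% of all tested genes. The part of the sort date in this result was not tested. Among the sex-linked genes, Xist had 434 CPM in pDC against 217 CPM in cDC1 (log2 change 1.00) and the Y genes had no count.

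Markers of other cell types were counted in the same libraries, and their part in the results was not tested. Summed over the monocyte list the level was 7158 to 7343 CPM in pDC and 799 to 986 CPM in cDC1. In pDC most of it came from Ly6c2 (6935 CPM in pDC against 75.4 CPM in cDC1, log2 change 6.52), a gene pDC are known to express. F13a1 had no count in either group. Of the 8 tested monocyte members 2 were higher in pDC and 3 were lower, with 2 and 2 past 4-fold. Against the cDC1 of 01.05.2016 it was 3 higher and 3 lower of 9. The cDC2 list summed to 2124 to 2349.8 CPM in pDC and 213 to 246 CPM in cDC1, with 7 of its tested members higher and 1 lower, led by Clec10a, Mgl2 (6.78) and Cd4 (4.96). The T cell list summed to 68.2 to 83.9 CPM in pDC and 4.67 to 10.7 CPM in cDC1. It was led by Cd28, with 3 members higher and 0 lower, and Cd3e, Bcl11b and Cd28 were among those at 0 in cDC1. The B cell list summed to 155 to 215 CPM in pDC and 58.7 to 88.5 CPM in cDC1, with 3 higher and 2 lower, and Pax5 and Cr2 were at 0 in cDC1. Ms4a1, which encodes CD20, was lower (4.56 CPM in pDC against 39.97 CPM in cDC1, log2 change -3.14), and Cd79b was higher (2.63). The plasma cell list summed to 238 to 539 CPM in pDC and 1.88 to 5.56 CPM in cDC1, with 2 higher and 0 lower. It rested on Mzb1, while Sdc1 and Tnfrsf17 were at 0 in cDC1. The NK cell list summed to 9.26 to 24 CPM in pDC and 134 to 147 CPM in cDC1, and its 1 called member was Klrk1 (-3.42). Red pulp macrophage markers summed to 399 to 561 CPM in pDC and 255 to 380.5 CPM in cDC1, 5 higher and 1 lower, none past 4-fold, and 4 higher and 3 lower against the cDC1 of 01.05.2016. Erythroid markers overlapped between groups, with 25.2 to 481 CPM in pDC and 105 to 1767 CPM in cDC1, and edgeR called none of them. Neutrophil markers summed to 1.34 to 2.84 CPM in pDC and 0.635 to 2.08 CPM in cDC1 and none passed the filter, with Mpo and Ngp at 0 in both groups. Platelet markers summed to 41.1 to 57.8 CPM in pDC and 3.89 to 6.64 CPM in cDC1, with Itgb3 the 1 called member (4.16).

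The same contrast in NOD, with no library shared, called 6468 of 11411 tested genes (56.7%) and put 2023 past 4-fold (17.7%). Of the large differences 1415 were past 4-fold in the same direction in both strains, 73.3% of the B6g7 list and 69.9% of the NOD list, and 12 were called in opposite directions. The interaction of cell type and strain was called for 945 of 11934 genes (7.92%), and for 341 at a size past 4-fold (2.86%). Spint1, a serine protease inhibitor, averaged 5.66 CPM in pDC and 0.116 CPM in cDC1 of NOD (log2 change 5.44). In B6g7 it had 1.52, 0.781 and 1.61 CPM in pDC, against 78.9, 93.7 and 85.2 CPM in cDC1 (log2 change -6.05), so the direction was opposite in the strains. Cadm1, an adhesion molecule of cDC1, had log2 changes of -0.20 in NOD and -3.36 in B6g7, and St3gal5, a ganglioside synthase, -1.85 in NOD and -6.63 in B6g7. Fam43a and Rnf187 had -0.49 and 0.53 in NOD against 4.53 and 2.33 in B6g7. Markers of other cells moved with strain as well, since the NOD cDC1 libraries held 110 to 238 CPM of neutrophil markers and the NOD pDC libraries 0.928 to 2.10 CPM. For the B cell list the NOD sums were 146 to 170 CPM in pDC and 302 to 589 CPM in cDC1, and for red pulp macrophages 82.0 to 124 CPM in pDC and 549 to 843 CPM in cDC1. The plasma cell list summed to 326 to 621 CPM in pDC and 160 to 453 CPM in cDC1 of NOD, the T cell list to 96.1 to 124 CPM and 50.4 to 69.5 CPM, and the erythroid list to 1517 to 2846 CPM and 3786 to 10833 CPM. Their part in the strain difference was not tested.

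The 2 same-day Rag1-/- pairs gave values within 1 sort date, with 1 library per cell type and strain and so no test. Of the 958 genes at least 4-fold higher in pDC B6g7, 876 were higher in both pairs (91.4%) and 524 past a log2 difference of 2. Of the 972 lower genes, 753 were lower in both (77.5%) and 472 past 2. Among all 11186 tested genes, 4219 were higher and 4376 lower in pDC of both pairs, and 1324 (11.8%) passed 2 in 1 direction in both pairs. Siglech had differences of 9.43 in the B6 pair and 9.66 in the NOD pair, and Xcr1 of -10.63 in the B6 pair and -7.86 in the NOD pair. Both markers thus followed their labels on a shared date. Large differences that turned past a log2 difference of 1 in both pairs were found for 6 genes, of which Ccl5 and S100a4 are named after their values were seen. Ccl5, a chemokine of activated cells, had 19, 14.8 and 17 CPM in pDC, against 353, 271 and 199.7 CPM in cDC1 in B6g7 (log2 change -4.02), but differences of 2.47 in the B6 pair and 1.03 in the NOD pair. S100a4 had 17.4, 18.7 and 16 CPM in pDC, against 122, 119.5 and 129.6 CPM in cDC1 (-2.83), with differences of 1.16 in the B6 pair and 2.21 in the NOD pair. These 2 genes were low in all pDC B6g7 libraries and higher in pDC in both pairs, which also differ from the B6g7 libraries in genotype, cell number and sequencing run.

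**Figure D5:**
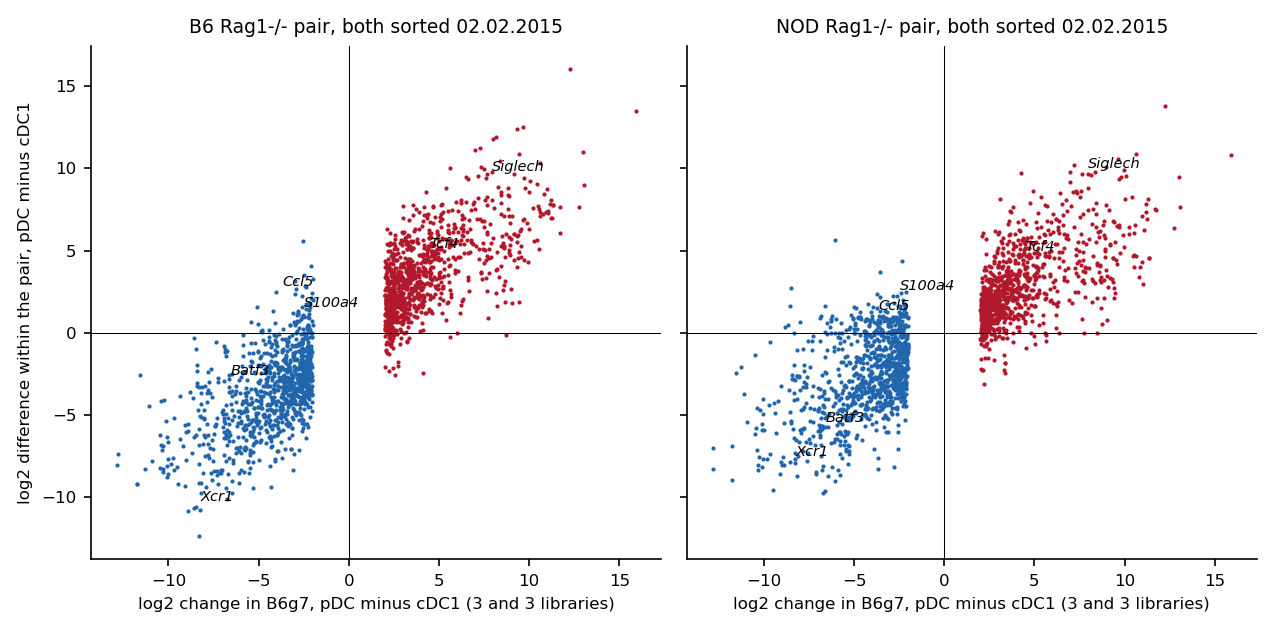
Log2 change (pDC minus cDC1) in B6g7 against the log2 difference in each same-day Rag1-/- pair, 1 panel per pair and 1 point per gene past 4-fold in B6g7. Of 1930 genes, 1629 lie on the same side of 0 in B6g7 and both pairs, and 6 lie past 1 on the other side in both pairs.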

How the data were processed

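RNA was amplified from about 500 pg per library with a SMART-seq v4 kit and sequenced on a NextSeq 500 instrument, per the labels' protocols. The authors deposited expected counts for 35070 transcripts, made with RSEM per the submitters' processing notes. The sources used here give no version, aligner or genome build. Of entries above 0, 50.8% were fractional. Expected counts were summed to 24451 genes and rounded, and 19014 genes had a count.

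Genes with at least 1 CPM in at least 3 libraries of a fit (2 where a library was left out) were tested with edgeR 4.0.16 in R 4.3.3. Scaling was by TMM, the quasi-likelihood fit was robust, and Benjamini-Hochberg adjusted p-values under 0.05 were called. The fit held the 6 libraries, with 4 residual degrees of freedom and a biological coefficient of variation of 18.1%. The SE is the size of the log2 change divided by the square root of F. Differences within the same-day pairs are log2 CPM with a prior count of 2. A large difference also had a log2 change of at least 2 in size. DESeq2 1.42.0 and limma 3.58.1 were alternatives, as were other scalings, filters and cDC1 libraries. Scripts were tested on simulated data. RSEM assigns reads of near-identical genes by estimate, so single paralogs are less certain. SE and SD cover the spread between the libraries used, and floors cover counting error only.

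Named genes were the 10 highest and 10 lowest changes (mean of at least 50 CPM in the higher group, no overlap), the markers and 18 fixed genes, up to 4 per list and direction, and 5 for the interaction. Not every gene the rule allows is printed, and some items are not reported here. Members and gene lists were chosen with earlier results of these data known.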

Additional observations from a re-analysis of the deposited data

Results flagged for a closer look

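The genes given here were those of the text whose log2 change (pDC minus cDC1) differed between NOD and B6g7 by edgeR's interaction test at an adjusted p under 0.05, which called 7.92% of all tested genes. Values are NOD minus B6g7, over 12 libraries. Spint1, a serine protease inhibitor, had the largest value, 11.48, with 5.44 in NOD against -6.05 in B6g7. Beside it, the values were 4.79 for St3gal5, 3.17 for Cadm1, 3.74 for Lgals3, 1.83 for Ccl4, 1.63 for Havcr2 and 1.30 for Atf3. Lgals3, a galactose-binding lectin, went with -0.70 in NOD against -4.43 in B6g7. Smaller positive values were 0.60 for Irf7, 0.59 for Flt3 and 0.54 for Bst2.

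Genes higher in pDC of B6g7 with a lower log2 change in NOD had values of -7.57 for Il12a, -6.80 for Klk1b27, -6.09 for Sdc1, -5.58 for Mzb1, -5.43 for Ly6d, -5.00 for Fam43a and -3.94 for Ikbke. The log2 change of Fam43a was below 0 in NOD (-0.49). Mzb1 had 2.57 in NOD against 8.16 in B6g7. Mzb1 and Sdc1 are members of the plasma cell list, which summed to 326 to 621 CPM in pDC and 160 to 453 CPM in cDC1 of NOD, against 238 to 539 CPM in pDC and 1.88 to 5.56 CPM in cDC1 of B6g7. Cd79b is a member of the B cell list, with 146 to 170 CPM in pDC and 302 to 589 CPM in cDC1 of NOD, against 155 to 215 CPM in pDC and 58.7 to 88.5 CPM in cDC1 of B6g7. Their part in these values was not tested. Further values of this kind were -3.72 for Tmem163, -3.70 for Angptl7, -3.44 for Mctp2, -2.64 for Ikzf3, -2.48 for Cd72, -2.33 for Cd79b, -2.22 for Pltp, -2.12 for Ets1 and -1.94 for Cd4. Lower sizes were found at -1.86 for Ly6a, -1.79 for Rnf187, -1.55 for Tlr7, -1.48 for Ctsd, -1.42 for Notch1 and -0.81 for Ctsl. Il12a, Klk1b27 and Sdc1 had no count in cDC1 of B6g7, so their fitted values depend on the prior count.

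Genes lower in pDC of B6g7 with a more negative log2 change in NOD gave -4.39 for Tlr11, -3.35 for Cxcl9, -3.06 for Ccr7, -2.83 for Cxcl16, -2.50 for Ccl22 and -1.56 for Id2, and -1.18 for Cd8a, -1.10 for Xcr1, -0.88 for Relb, -0.74 for Itgax and -0.47 for Tmsb4x. Tlr11 had no count in pDC of NOD, so its fitted value depends on the prior count. On the scale of all Rag-sufficient libraries, Tlr11 averaged 0 CPM in pDC of NOD and 0.229 CPM in pDC of B6g7. Its cDC1 levels on 10.26.2015 were 171.5 CPM in NOD and 196.9 CPM in B6g7. Of the red pulp macrophage markers, Slc40a1 gave -4.03 and Hmox1 -3.13. Slc40a1 was higher in pDC of B6g7 (log2 change 1.66) and lower in pDC of NOD (-2.38). Hmox1 was lower in pDC of both, with -0.31 in B6g7 and -3.45 in NOD. The NOD sums of the red pulp macrophage list were 82.0 to 124 CPM in pDC and 549 to 843 CPM in cDC1. The part of such cells in these values was not tested.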

How the results depend on the processing

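Counts of genes differing between pDC and cDC1 kept within 1.5 times under every alternative run. They ran from 4552 (all 6 cDC1 libraries) to 8824 (cDC1 of 01.05.2016) against 6604. For large differences they ran from 1353 (at least 5 CPM) to 2553 (cDC1 of 01.05.2016) against 1930. The glmTreat test of edgeR, against a log2 change of 1 and without the cut at 2, called 2596. Without scaling, 5059 of 7284 were higher in pDC, 5062 of 7350 in NOD (3136 of 6468 with TMM), and between cDC1 dates 6646 of 8612 were higher on 01.05.2016 (3938 of 7743 with TMM). Leaving out each library gave 6114 to 6410 genes, 2013 to 2054 large ones, 7211 to 7597 between cDC1 dates, 5990 to 6195 in NOD and 700 to 878 for the interaction. DESeq2's Wald test gave 1283 for the interaction against 945. Same-day agreement was 1604 genes without scaling against 1629.

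A replicate block gave 6418 genes, 1945 large ones, 6047 in NOD and 810 for the interaction. The numbers were not taken as pairs, since same-numbered pDC and cDC1 libraries deviated together with correlations of 0.036, 0.031 and 0.042, though each correlated best with its own number. Of the genes checked 1 lost its call under the block, Lyz2 (adjusted p = 0.074).

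Of 190 genes checked, 12 lost their call without 1 library, among them Hmox1 and Slc40a1, and 0 turned. With all 6 cDC1 libraries 17 lost their call, against the cDC1 of 01.05.2016 alone 8 did, and without scaling 6 did. Without scaling Hmox1 turned, with a log2 change of 0.038. Against the cDC1 of 01.05.2016 the log2 change turned for Stat2 (−0.016), Rab27a (−0.051), Sdf2l1 (0.36), Hspa5 (0.15), Derl2 (0.66) and Slc40a1 (−0.67), and with all 6 cDC1 libraries for Derl2 (0.037). The cause was not tested. Low counts limit precision: type I interferon genes had 7 counts in 3 pDC libraries.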
